A study of Mus musculus with 6 samples.

Results

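The core circadian clock genes were compared between skeletal muscle of FLExDUX4 and WT mice through 10 genes chosen by name, out of 52550 mouse genes in the deposited table. They are the activators Arntl, Clock and Npas2 and the repressors Per1, Per2, Per3, Cry1, Cry2, Nr1d1 and Nr1d2. In FLExDUX4 muscle both well-counted activators were lower, Arntl with 0.404 times and Clock with 0.609 times the wild-type level. The period genes Per2 and Per1 and the cryptochrome gene Cry2 were higher, at 2.66, 1.63 and 1.62 times the wild-type level, although with scaling to spike-in RNAs Per2 alone of these 3 kept a call. With the main scaling (TMM), Nr1d1 and Nr1d2 each differed by less than their counting error. Per3 and Cry1, at 1.39 and 0.755 times the wild-type level, differed by less than the size taken as a call below. Scaled to spike-in RNAs, Cry1 was called lower, and Nr1d1 and Nr1d2 changed sign. All 6 samples were labelled as quadriceps from male mice 13 weeks old, 3 FLExDUX4 mice and 3 WT littermates, whereas the methods of the study name triceps and an age of 2 months. FLExDUX4 mice are hemizygous for an inverted human DUX4 transgene at the Rosa26 locus, in a B6 background. No Cre was present to turn the transgene, and its low, leaky expression is the model of facioscapulohumeral muscular dystrophy. RNA of the transgene itself was not analysed here.

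The circadian clock is a feedback loop of transcription with a period of about a day that runs in nearly every cell, muscle fibers included. ARNTL (also called BMAL1) pairs with CLOCK, or with its paralog NPAS2, and activates genes through E-box sequences. Among these are the Per and Cry genes, whose proteins return to the nucleus and block ARNTL and CLOCK, and Nr1d1 and Nr1d2, whose proteins (REV-ERBα and REV-ERBβ) repress Arntl. Levels of these RNAs therefore change with the hour at which a tissue is taken, and the hour of collection is not given in the sources used here.

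RNA was read with QuantSeq, which counts about 1 tag at the 3′ end of each polyadenylated transcript, so that levels of different genes can be set side by side without division by length. The values compared are raw counts that the authors summed over the mice of a genotype, 13110125 on genes for FLExDUX4 and 18367364 for WT mice. No test between replicates was run, since the single-library columns of the table carry names that match no sample label and the authors' own comparison was not used here. A single mouse could therefore set a difference between the totals, and the 95% intervals below cover counting error only. Levels are given as CPM, the counts divided by the TMM-scaled depth, and differences as the log2 ratio of FLExDUX4 over WT. A log2 ratio of 0.5 or more in size was taken as a called difference. The skeletal muscle markers Ckm, Acta1, Myh4, Myh1, Tnnt3 and Pvalb were abundant, with 102836 CPM in all in FLExDUX4 and 103165 CPM in WT mice. Of the hindlimb position genes, Hoxc10 had 0 counts in both totals, Pitx1 had 0 and 1, and Tbx4 had 10 and 10, while the forelimb gene Tbx5 had 14 and 34. Scaling to the spike-in RNAs in place of TMM shifted every log2 ratio by -0.28, and values under it are given for core and further clock genes where they change a call or a sign.

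Promoter windows from RefSeq (GRCm38.p6, 250 bases before to 50 after a transcript start) were found for 9 of the 10 genes, all but Per2, with 13 windows in all. They were searched on both strands for the E-box CACGTG and the related E′-box CACGTT. The other elements searched were the D-box TTATGTAA and the AGGTCA core that ROR and REV-ERB receptors bind. The stretches before the start that hold an E-box, E′-box or D-box are shown because ARNTL and CLOCK act through the E-box and the factors of the D-box are among the genes described below, with the matches in capitals, read 5′ to 3′ on the strand of the gene.
Per1 (chr11:69098699-69098948, plus strand): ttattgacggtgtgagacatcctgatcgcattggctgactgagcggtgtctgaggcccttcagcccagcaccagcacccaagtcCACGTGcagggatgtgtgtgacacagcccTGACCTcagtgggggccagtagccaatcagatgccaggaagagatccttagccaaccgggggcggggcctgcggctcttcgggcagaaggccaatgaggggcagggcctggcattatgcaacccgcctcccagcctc
Per3 (chr4:151044666-151044915, minus strand): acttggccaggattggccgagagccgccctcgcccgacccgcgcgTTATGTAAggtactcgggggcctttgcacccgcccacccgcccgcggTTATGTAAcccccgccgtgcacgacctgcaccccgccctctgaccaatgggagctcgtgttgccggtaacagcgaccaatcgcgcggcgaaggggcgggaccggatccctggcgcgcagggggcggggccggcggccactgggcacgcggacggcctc
Cry1 (chr10:85185055-85185304, minus strand): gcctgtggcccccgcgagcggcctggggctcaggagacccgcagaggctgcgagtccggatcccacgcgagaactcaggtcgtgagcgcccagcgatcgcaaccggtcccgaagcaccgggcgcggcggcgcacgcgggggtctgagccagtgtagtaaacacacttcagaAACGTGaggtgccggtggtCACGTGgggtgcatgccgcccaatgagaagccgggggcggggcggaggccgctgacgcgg
Cry2 (chr2:92434070-92434319, minus strand): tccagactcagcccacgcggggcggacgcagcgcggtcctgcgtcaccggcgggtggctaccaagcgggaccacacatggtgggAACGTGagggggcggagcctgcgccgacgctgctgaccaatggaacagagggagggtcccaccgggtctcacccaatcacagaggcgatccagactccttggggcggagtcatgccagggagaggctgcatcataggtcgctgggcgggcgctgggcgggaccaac
Nr1d1 (chr11:98775378-98775627, minus strand): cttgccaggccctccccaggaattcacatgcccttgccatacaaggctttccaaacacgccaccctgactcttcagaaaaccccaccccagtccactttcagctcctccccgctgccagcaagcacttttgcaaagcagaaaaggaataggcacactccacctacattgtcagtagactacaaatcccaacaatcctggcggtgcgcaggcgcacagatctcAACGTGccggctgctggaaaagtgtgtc

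Per1 held an E-box 166 bases before its start and Cry1 an E-box 60 bases and an E′-box 79 bases before its start. Cry2 and Nr1d1 each held an E′-box, 166 and 28 bases before the start. In Cry1, Cry2 and Nr1d1 the E′-box lay on the opposite strand and reads AACGTG in the stretches shown. An E-box stood in 7.15% of all 32851 windows and an E′-box in 4.68%. Per3 held 2 D-boxes, 205 and 158 bases before its start, an element found in 0.938% of all windows. The AGGTCA core, present in 16.3% of all windows, was found in windows of Arntl, Clock, Per1 and Nr1d2. In Arntl it lay 31 bases after the second annotated start, within chr7:113207530-113207553 (plus strand): aaggcagaaagtAGGTCAgggacg. No match was found in the window of Npas2 or in the other windows of Arntl, Clock and Per1. A match is a sequence description, and the AGGTCA core in the Per1 stretch is capitalised on the opposite strand (TGACCT).

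Among the activators, Arntl (ENSMUSG00000055116, chromosome 7, 113207465 to 113314126; all 10 genes are protein-coding and positions are on GRCm38) had 72 counts in the FLExDUX4 total and 255 in the WT total. This was 5.55 against 13.7 CPM, a log2 ratio of -1.30 (interval -1.71 to -0.93). Clock (ENSMUSG00000029238, chromosome 5, 76209868 to 76304792), which encodes the partner of ARNTL, had 307 against 721 counts, or 23.7 and 38.8 CPM. Its log2 ratio was -0.71 (interval -0.91 to -0.52), a smaller difference than that of Arntl. The number of Clock tags per Arntl tag was 4.26 in FLExDUX4 and 2.83 in WT mice, a ratio of 1.51 (interval 1.12 to 2.05). Npas2 (ENSMUSG00000026077, chromosome 1, 39193731 to 39363236), the paralog that can replace Clock, had 3 and 7 counts and did not pass the filter on low counts. Its log2 ratio of -0.58 has an interval from -3.29 to 1.43, so a difference was not detectable at this depth. The 2 activators that passed the filter were both called lower, and 15.7% of the 13396 genes tested were called lower. With TMM scaling few genes were called lower at a similar depth. Among 4707 tested genes with 327 to 2325 summed counts, the range of the 9 core clock genes that passed, 3.36% were called lower. With spike-in scaling 18.7% of the same genes were called lower.

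The period genes encode the proteins that bind the cryptochromes and carry the repression of ARNTL and CLOCK. Per2 (ENSMUSG00000055866, chromosome 1, 91415982 to 91459324) had 331 against 178 counts, or 25.5 and 9.59 CPM. Its log2 ratio of 1.41 (interval 1.14 to 1.68) was the highest of the 10 genes, and 96.8% of all genes tested had a lower one. Per1 (ENSMUSG00000020893, chromosome 11, 69095217 to 69109960) had 579 against 507 counts, or 44.6 and 27.3 CPM, a log2 ratio of 0.71 (interval 0.53 to 0.88). Per3 (ENSMUSG00000028957, chromosome 4, 151003652 to 151044665) had 440 against 454 counts, or 33.9 and 24.5 CPM. Its log2 ratio of 0.47 (interval 0.28 to 0.66) lay just under the size taken as a call. With TMM scaling the counting intervals of all 3 period genes thus lay above 0, as did those of 20.5% of all genes tested. The summed level of the 3 genes was 104 against 61.4 CPM, a log2 ratio of 0.76 (interval 0.65 to 0.88). Per2 took 24.5% (interval 22.2 to 26.9) of the tags of the 3 genes in FLExDUX4 and 15.6% (interval 13.6 to 17.9) in WT mice. The share of Per1 was 42.9% and 44.5%, with overlapping intervals, and that of Per3 was 32.6% against 39.9%. With spike-in scaling Per2 kept a log2 ratio of 1.13, Per1, at 0.43, was no longer called, and Per3 was at 0.20. The sum of the 3 genes was then at 0.49.

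The cryptochromes, the direct inhibitors of the ARNTL and CLOCK pair, went in opposite directions. Cry2 (ENSMUSG00000068742, chromosome 2, 92403646 to 92434043) had 293 against 258 counts, or 22.6 and 13.9 CPM, a log2 ratio of 0.70 (interval 0.45 to 0.95). Cry1 (ENSMUSG00000020038, chromosome 10, 85131700 to 85185064) had 163 against 309 counts, or 12.6 and 16.6 CPM, a log2 ratio of -0.40 (interval -0.69 to -0.13). Cry1 was the only repressor whose log2 ratio was below 0 under TMM scaling. The sum of both genes was 35.1 against 30.6 CPM, a log2 ratio of 0.20 (interval 0.02 to 0.38) that became -0.07 with spike-in scaling. Cry2 took 64.3% (interval 59.7 to 68.7) of the tags of the pair in FLExDUX4 and 45.5% (interval 41.3 to 49.7) in WT mice. The number of Cry2 tags per Cry1 tag was 1.80 and 0.835, a ratio of 2.15 (interval 1.66 to 2.80) that does not depend on scaling. With spike-in scaling Cry1 was called lower, at -0.68, and Cry2 was not called, at 0.42.

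Nr1d1 (ENSMUSG00000020889, chromosome 11, 98767932 to 98775333) and Nr1d2 (ENSMUSG00000021775, chromosome 14, 18204054 to 18239127), the repressors of Arntl, had the highest levels of the 10 genes in both genotypes. Nr1d1 had 732 against 966 counts, or 56.4 and 52.1 CPM, a log2 ratio of 0.12 (interval -0.02 to 0.26). Nr1d2 had 995 against 1330 counts, or 76.7 and 71.7 CPM, a log2 ratio of 0.10 (interval -0.02 to 0.22). Neither was called, and with spike-in scaling both changed sign, to -0.16 and -0.18. Their sum was at 133 against 124 CPM, a log2 ratio of 0.11 (interval 0.01 to 0.20) that became -0.17 (interval -0.26 to -0.08) with spike-in scaling, so its direction differed between the scalings. Their ratio to each other was 0.736 in FLExDUX4 and 0.726 in WT mice, and the ratio between genotypes had an interval from 0.891 to 1.15. The end of Nr1d1 overlaps that of Thra on the opposite strand, with 263 exonic bases in common, and the strand setting of the counting is not given in the sources used here, so tags of these 2 genes may be mixed. Thra had 1072 against 1649 counts, a log2 ratio of -0.10 (interval -0.22 to 0.01). Of the other genes, Cry2 shares 295 and Arntl 33 exonic bases with a noncoding gene on the opposite strand, away from the end where tags are read, while Per3, its 3′ end included, lies within the span of Camta1 on the same strand, with no exonic base in common.

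**Figure D1:**
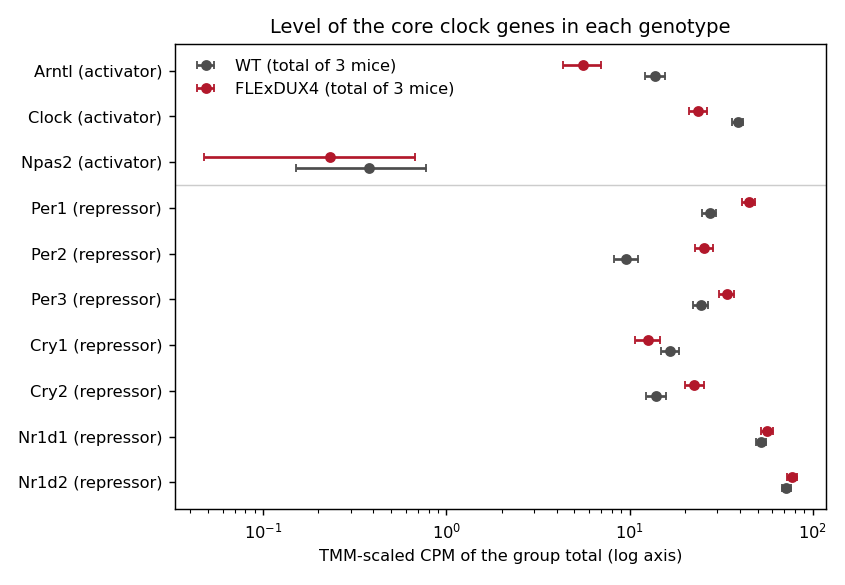
Level of each core clock gene, in TMM-scaled CPM on a log axis, in the FLExDUX4 total and the WT total, each summed over 3 mice. Points are the levels and bars the 95% counting intervals. Arntl and Clock lie lower and the Per genes and Cry2 higher in FLExDUX4, the intervals of Cry1 lie close together without overlap, and those of Npas2, Nr1d1 and Nr1d2 overlap.

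The order of the levels differed between the genotypes. In WT mice it ran Nr1d2, Nr1d1, Clock, Per1, Per3, Cry1, Cry2, Arntl, Per2 and Npas2. Neighbours whose counting intervals overlapped were Per1 with Per3, Cry1 with Cry2, and Cry2 with Arntl. In FLExDUX4 mice it ran Nr1d2, Nr1d1, Per1, Per3, Per2, Clock, Cry2, Cry1, Arntl and Npas2, with overlap of Per2 with Clock and of Clock with Cry2. Per2 thus stood at rank 9 in WT and rank 5 in FLExDUX4 mice, and Clock at rank 3 and rank 6. The WT level of the 9 well-counted genes lay above that of 54.4% of the genes tested for Per2, the lowest of them, and of 91.0% for Nr1d2, the highest.

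Set against each other, the 2 arms of the loop differed from WT in opposite directions on balance under TMM scaling. Of the 7 repressors 3 were called higher, none was called lower and 4 lay between, with log2 ratios from -0.40 to 1.41 and a median of 0.47. The share called higher was 15.7% among all genes tested and 4.5% among those with summed counts in the range of the core clock genes. The median of the activators that passed the filter was -1.01, and the median of all genes tested was -0.001. The counting interval lay above 0 for 4 repressors and below 0 for 1, whereas it lay above 0 for 20.5% and below 0 for 20.6% of all genes tested, and for 21.8% and 20.4% of those in the range of counts. A counting interval that leaves out 0 is therefore common in these totals. At a log2 ratio of 1 or more in size, Per2 was higher and Arntl lower, a size reached upward by 5.99% and downward by 7.43% of all genes tested and by 0.255% each way in the range of counts. Under spike-in scaling Per2 alone was called higher among the repressors and Cry1 was called lower, while Arntl and Clock remained lower at -1.58 and -0.99, and the median of the repressors was 0.20. With that scaling 9.11% of all genes tested were called higher and 28.5% lower, and 1.02% and 18.7% of those in the range of counts.

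**Figure D2:**
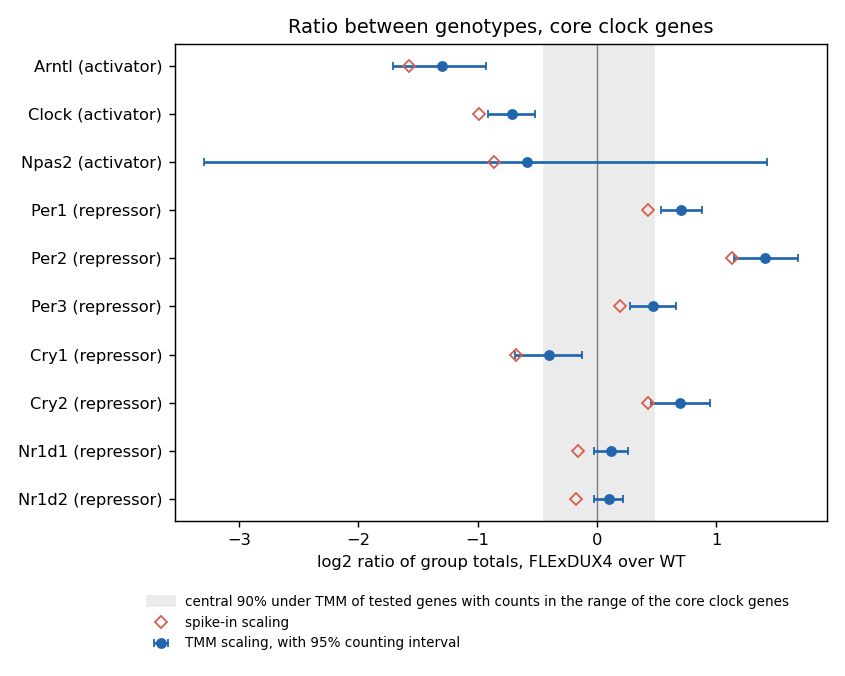
Log2 ratio of the group totals, FLExDUX4 over WT, for each core clock gene. Filled points are TMM-scaled ratios with 95% counting intervals, open diamonds are spike-in-scaled ratios, and the gray band holds the central 90% of 4707 tested genes with summed counts in the same range, from -0.44 to 0.48. The band is drawn from TMM-scaled ratios and applies to the filled points, of which Arntl and Clock lie left of it and Per2, Per1 and Cry2 right of it. Npas2, which did not pass the filter, also lies left of it with an interval that spans it.

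The ratio of a repressor to an activator within a total is free of scaling, since both genes are read in the same libraries. In FLExDUX4 mice there were 9.25 repressor tags per activator tag and in WT mice 4.07, a ratio of 2.27 (interval 1.999 to 2.59). With TMM scaling the activators took the larger part of it: their summed level was 29.4 against 53.0 CPM, a log2 ratio of -0.85 (interval -1.02 to -0.68). The summed repressors were at 272 against 216 CPM, a log2 ratio of 0.34 (interval 0.27 to 0.40) that became 0.06 (interval -0.01 to 0.13) with spike-in scaling, where the activators were at -1.12. Per2 to Arntl was the pair that differed most, with 4.60 Per2 tags per Arntl tag in FLExDUX4 and 0.698 in WT mice, a ratio of 6.59 (interval 4.74 to 9.19). Per2 was thus read more often than Arntl in FLExDUX4 and less often in WT mice. Per2 to Clock was 0.247 in WT and 1.08 in FLExDUX4 mice, where the levels of Per2 and Clock had overlapping counting intervals. All 21 pairs of a repressor and an activator had a ratio above 1, from 1.23 to 6.59, and the counting interval lay above 1 for 13 of them. The 8 others were the 7 pairs with Npas2 and the pair of Cry1 and Clock, at 1.24 (interval 0.975 to 1.57). The pairs share genes and are not independent of each other.

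**Figure D3:**
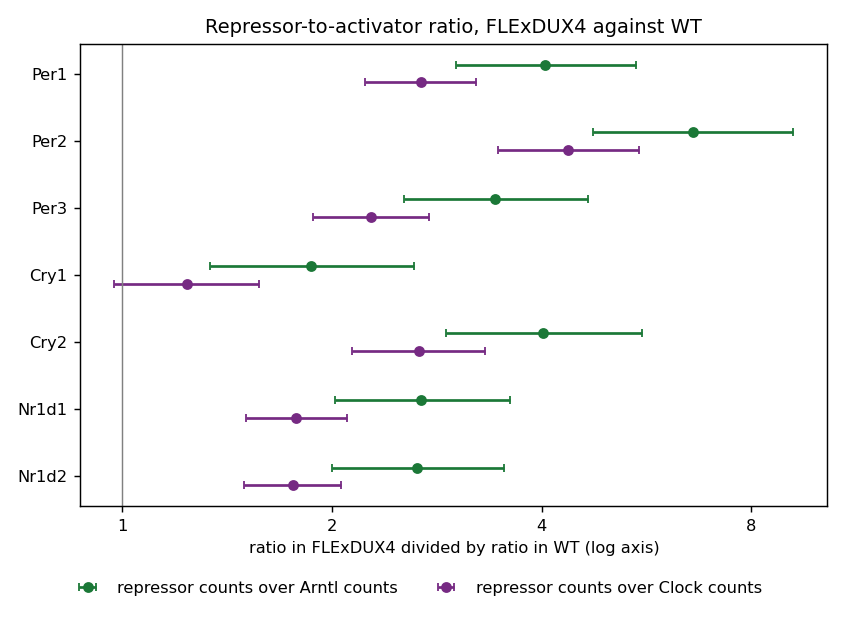
Ratio of repressor counts to Arntl or Clock counts in the FLExDUX4 total, divided by the same ratio in the WT total, on a log axis, with 95% exact counting intervals. All 14 ratios lie above 1, the highest is Per2 over Arntl at 6.59, and the interval of Cry1 over Clock is the only one that includes 1.

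Of 20 further genes of the clock, 19 passed the filter, and 3 of these were called higher, none lower and 16 lay between, with a median log2 ratio of 0.23. A call of higher in 3 of 19 is close to the 15.7% of all genes tested. The log2 ratio was above 0 for 14 of the 19 under TMM but for 8 with spike-in scaling, where the median was -0.05, 2 were called higher and 3 lower, against 9.11% and 28.5% of all genes tested with that scaling. Among other repressors that act at the E-box, Ciart had 88 against 52 counts and a log2 ratio of 1.27 (interval 0.76 to 1.80), while Bhlhe40 had 0.48 (interval 0.35 to 0.61) and Bhlhe41 -0.01 (interval -0.16 to 0.14). Arntl2, the paralog of Arntl, had 20 against 17 counts and a log2 ratio of 0.74 whose interval, -0.26 to 1.77, includes 0, and was no longer called with spike-in scaling, at 0.47. Of the factors that act at the D-box, the activator Dbp had 1334 against 1007 counts, or 103 and 54.3 CPM, a log2 ratio of 0.92 (interval 0.80 to 1.04). Its relatives Hlf and Tef were at 0.46 (interval 0.24 to 0.67) and 0.17 (interval 0.08 to 0.26), and the D-box repressor Nfil3 was at -0.24 (interval -0.53 to 0.04). With spike-in scaling Tef changed sign, to -0.10, and Nfil3 was called lower, at -0.52. These are the factors whose element occurs 2 times in the Per3 stretch above. Genes of ROR receptors, which activate Arntl at the element where REV-ERB proteins repress it, had log2 ratios of 0.16 (interval 0.09 to 0.23) for Rora and 0.12 for Rorb, the latter from 12 and 16 counts. Both changed sign with spike-in scaling, to -0.12 and -0.16.

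Genes that act on the stability of PER and CRY proteins were not called in either direction under TMM scaling. Of the kinases, Csnk1e and Gsk3b had log2 ratios of 0.30 and 0.27 and Csnk1d -0.10, and Gsk3b was at -0.01 with spike-in scaling. Of the ubiquitin ligase genes, Btrc was at -0.44 (interval -0.79 to -0.10) and Fbxw11 at -0.38 (interval -0.63 to -0.14), and with spike-in scaling both were called lower, at -0.71 and -0.66. Fbxl21 had 0 counts in FLExDUX4 and 6 in WT mice and did not pass the filter. Usp2, a deubiquitinase, was at 0.46 (interval 0.41 to 0.51). Nampt and Sirt1, of the NAD pathway linked to the clock, were at 0.07 and 0.44, and Timeless, with 22 and 27 counts, at 0.23. With spike-in scaling Nampt and Timeless changed sign, to -0.21 and -0.05.

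**Figure D4:**
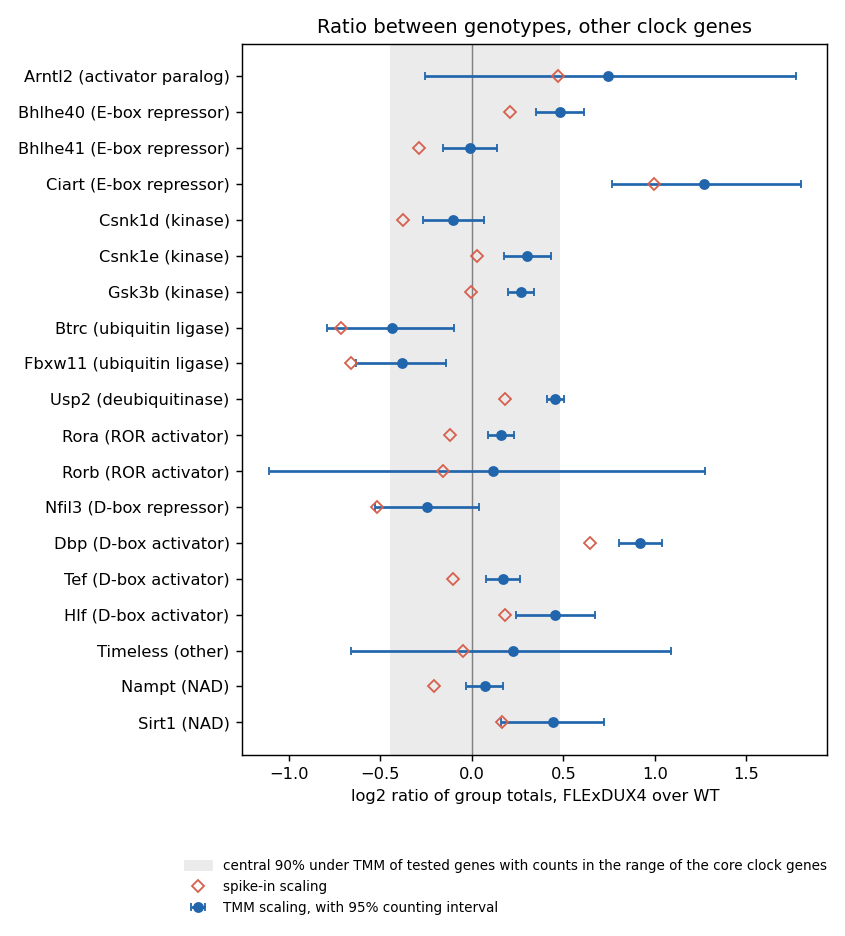
Log2 ratio of the group totals, FLExDUX4 over WT, for the 19 further clock genes that passed the filter, with their role in parentheses (NAD stands for the NAD pathway). Symbols and the gray band are as in the plot of the ratios of the core clock genes. The filled points of Ciart, Dbp and Arntl2 lie right of the band, and that of Bhlhe40, at 0.48, lies at its edge. Of the 19 genes 11 have summed counts outside the range the band was drawn from, Arntl2, Ciart and Dbp among them, so the band is no measure for these, and the wide intervals of Arntl2, Rorb and Timeless reflect totals under 50 counts.

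Bulk muscle holds other cells, in which the clock also runs, and fewer cells of a type cannot be told apart from less RNA per cell. Blood markers (3 of 3 above 0) were at 989 CPM in FLExDUX4 and 785 CPM in WT mice, and adipocyte markers (3 of 4 above 0, Lep below) at 147 and 85.3 CPM. Fibroblast markers were at 1048 and 939 CPM (3 of 3 above 0), endothelial markers at 147 and 168 CPM (1 of 3 above 0), and Schwann cell markers at 56.6 and 58.7 CPM (1 of 3 above 0). Leukocyte markers were at 8.94 and 9.54 CPM (1 of 3 tested above 0), and Cd3e had 3 counts in FLExDUX4 and 0 in WT mice. These counts of markers above 0 are under TMM, and with spike-in scaling they were 2 of 3 for blood, 1 of 3 for fibroblasts and 0 of 3 for endothelium, with no change for the adipocyte, leukocyte and Schwann cell markers. The counting interval lay above 0 for 3 of 3 blood, 3 of 4 adipocyte and 1 of 3 fibroblast markers (Col1a1). It lay below 0 for 1 of 3 endothelial markers, Kdr, at -0.56 (interval -0.70 to -0.42). Under TMM, Kdr was called lower, as were, with intervals that include 0, Sox10 (-0.96), Lep (-0.82), Adgre1 (-0.66) and Cd68 (-0.64). Cfd (0.88), Adipoq (0.70) and Col1a1 (0.53) were called higher. Of all genes tested, 15.7% were called in each direction. Per1 is also a gene that glucocorticoid hormones induce. Per1 aside, the glucocorticoid-responsive genes listed were Fkbp5, Tsc22d3, Zbtb16 and Klf15, all above 0 under TMM. Zbtb16 had a log2 ratio of 1.08, Klf15 of 0.96 and Fkbp5 of 0.94, and these were called higher, as were 15.7% of all genes tested. Tsc22d3 was at 0.18, which was -0.09 with spike-in scaling. The part of these cells and of this response in the differences of the clock genes was not tested.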

How the data were processed

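Muscle RNA of 3 FLExDUX4 and 3 WT mice was sequenced with QuantSeq. Per the study's methods, Cutadapt trimming was followed by STAR alignment to GRCm38 with added ERCC and SIRV spike-in sequences, and the authors deposited raw counts per gene summed over each genotype. The processing notes also name featureCounts 1.6.2. The table further holds the authors' own DESeq2 comparison (mean, fold change, standard error, statistic and p-values) and 6 columns of single libraries whose names match no sample label, and neither was used. The plan did not foresee a test across replicates for these totals, and none was run.

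TMM factors for the 2 totals came from edgeR 4.0.16 in R 4.3.3, on the 13396 genes that pass filterByExpr. A pseudocount of 0.5 was added to each total before the log2 ratio. Their intervals are 95% Clopper-Pearson intervals of the FLExDUX4 share of counts. Intervals of CPM are exact Poisson intervals, and those of ratios of ratios are exact conditional intervals of the odds ratio (scipy 1.17.1). Scripts were tested on simulated data. Other scalings, filters and pseudocounts were tried. Named genes are the 10 members, the further clock genes and the marker genes listed, all chosen with earlier results of these data known, and the pairs and sums within gene families were added after the values were seen. Protein identities, listed in the plan, were not analysed here, and 2 listed clock genes are not reported here. Gene positions are from GENCODE M21 on GRCm38, whose starts equal the deposited ones for all 10 genes.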

Additional observations from a re-analysis of the deposited data

How the results depend on the processing

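With RLE, upper quartile, gene totals, gene totals without the top 10 genes, no pseudocount, a minimum of 10 counts in both totals, no filter or a pseudocount of 5, all 10 log2 ratios stayed within their counting intervals. Spike-in totals moved 7 of the 10 out of their intervals, and 8 kept their sign. Under it the median of the repressors was 0.20, 1 repressor was called higher and 1 lower, and 2 further clock genes (Ciart and Dbp) were called higher and 3 (Btrc, Fbxw11 and Nfil3) lower, and the cause of the shift was not tested. With a fold of 1 on the log2 scale, 1 activator was called lower, 1 repressor higher and 1 further clock gene higher. With no filter 1 further clock gene, Fbxl21 with 0 and 6 counts, was called lower, and with Npas2 (3 and 7 counts) 3 activators were called lower, with a median of -0.72. Without Arntl the median of the activators was Clock alone, at -0.71. Without the members with the most counts, Nr1d2 and Clock, the ratio of repressor-to-activator ratios was 3.32. This lay above the interval for all members summed, 1.999 to 2.59, so the size of that ratio depends on the genes with most counts. No paired analysis was possible because the columns used carry no replicate number. Leaving out each replicate, DESeq2 and edgeR's tests were not run, since the single-library columns match no sample label, and the authors' own DESeq2 comparison was not used. Npas2, Fbxl21, Pitx1, Hoxc10 and Cd3e were too shallow for a difference to be detectable.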
